A study of Mus musculus with 4 samples.

Results

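The 42 genes described here encode the machinery that copies DNA and supplies its nucleotides: 16 genes of helicase loading and activation, 16 of the polymerases and the fork, 6 of nucleotide supply and uracil removal, and 4 that copy DNA methylation and chromatin behind the fork. A gene was measured where an array probe carried the accession of one of its RefSeq transcripts, whatever the value of the probe. This gave 47 probes for 41 of the 42 genes, and no probe was matched to Gins1, which was not analysed here. The values came from whole pancreas of C57BL/6JNarl mouse embryos at E18.5, comparing extracts of Cyp11a1 knockout embryos with extracts of wild-type embryos on 4 two-colour arrays, labelled as biological replicates. Cyp11a1 encodes the enzyme that begins steroid hormone synthesis. Each array held 1 knockout extract in the red dye and 1 wild-type extract in the green dye, with no dye swap, so genotype and dye cannot be told apart for any gene. The labels do not say whether the deletion was present in every tissue, or whether an extract came from 1 embryo or from several, so p-values measure the spread between these 4 arrays.

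Before a cell can copy its DNA, the origin recognition complex with Cdc6 and Cdt1 loads the ring of Mcm2 to Mcm7 subunits onto chromatin in G1 phase, and Cdc45 and the GINS subunits then turn the ring into the running helicase. Primase and polymerase alpha start each strand, replication factor C loads the Pcna clamp, and polymerases delta and epsilon extend. Transcription of most of these genes rises at the entry into S phase through E2F factors, so their messages are commonly read as a measure of how many cells of a tissue are cycling. In the pancreas late in gestation, acinar and endocrine cells still divide.

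The arrays gave median red signals of 304 to 467 and median green signals of 163 to 224 per array, and between 78.2% and 85.1% of the spots of a channel passed Agilent's test of being well above background. The brighter Cyp11a1 probe gave a log2 ratio of -0.16 ± 0.070 (SE, n = 4, limma adjusted p = 0.164), with -0.19, -0.40, 0.013 and -0.072 on arrays 1 to 4, and the other probe was not well above background in any knockout extract. Where these probes lie relative to the deletion is unknown here, so neither checks the labels. Tissue identity was checked on fixed marker lists, and all 9 measured acinar markers and all 9 measured endocrine markers were well above background in every extract. Hepatocyte markers differed widely between extracts: Alb gave 4.13, 2.70, -3.52 and 1.44 on arrays 1 to 4, and the summed signal of the 7 measured hepatocyte markers spanned 6386 to 16952 in knockout and 4913 to 9356 in wild type. Xist, expressed from the inactive X chromosome of females, gave -3.91, -0.28, -4.22 and 3.46, and the labels do not give the sex of the embryos. The extracts paired on arrays 1, 3 and 4 may thus differ in sex.

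Replication genes were higher in knockout pancreas as a group, by a small amount each, while 1 subunit of the helicase was lower. Of the 41 measured genes, 25 rose (61.0%) against 9.45% of all 15524 genes tested, and 1 fell against 5.11% of all genes, at a Benjamini-Hochberg adjusted p under 0.05 in limma. Their median log2 ratio, taken as knockout over wild type, was 0.21, against 0.013 over all genes tested, and 39 of the 41 means were above 0. The means ran from -0.76 for Mcm5 to 0.57 for Rfc4. With each probe tested separately, 27 of the 47 probes passed as higher against 6.63% of all probes, and 1 as lower. Because the tissue was extracted whole, more cycling cells, more RNA per cycling cell and a different mix of cell types cannot be told apart. Of the marker lists, acinar had 4 of 9 measured genes higher and 2 lower, and mesenchyme 1 of 7 higher. Endocrine had 2 of 9 lower and endothelium 2 of 6 lower, and the other lists had no marker past the threshold. Whether the mix of cells differed was not tested. The count of 25 rests on all arrays together: 9, 21, 14 and 10 genes passed as higher without replicate 1, 2, 3 and 4, and Mcm5 passed as lower each time. The genes that passed in all 4 of those fits were Mcm5, Mcm6, Mcm7, Mcm10, Rfc3, Rfc4, Prim1, Rpa1 and Tyms, 9 in all. Without the array as a block, 1 gene passed as higher (Rfc4, adjusted p = 0.0297) and Mcm5 did not pass (-0.76, adjusted p = 0.0673).

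**Figure D1:**
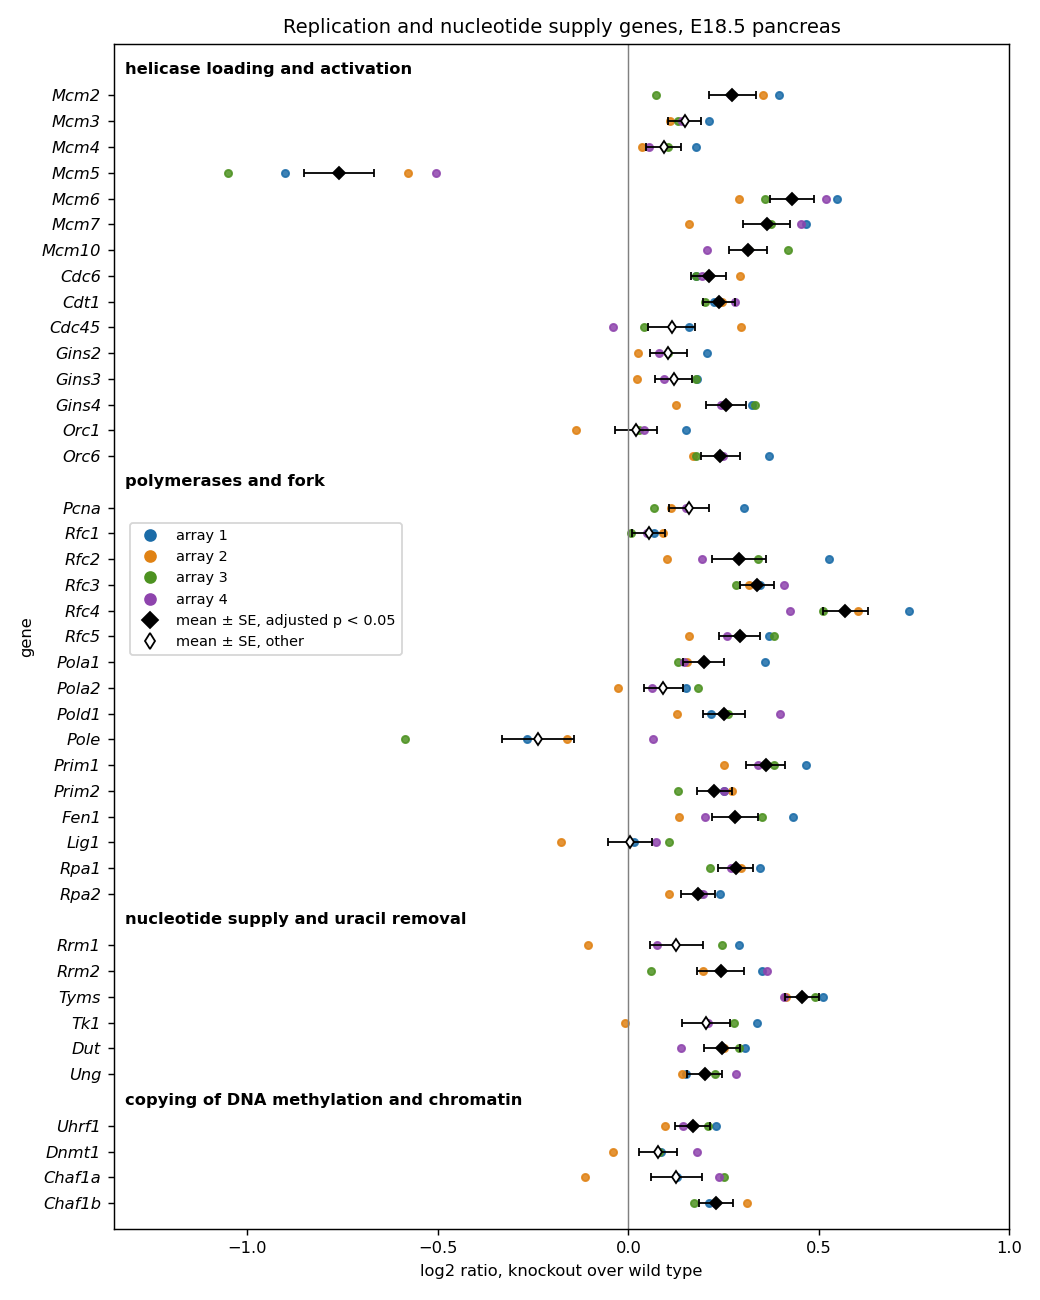
Log2 ratio of knockout over wild type (x axis) for the 41 measured genes (y axis), grouped by role. Coloured points are the 4 arrays, diamonds are means with SE, and filled diamonds passed the adjusted p threshold of 0.05. Most genes lie between 0 and 0.5 on all arrays, whereas Mcm5 lies between -1.05 and -0.50.

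The shift was present on each array. The median of the 41 genes was 0.25, 0.13, 0.19 and 0.20 on arrays 1 to 4, where the median of all genes lay between 0.017 and 0.022, and 31 of the 41 genes were above 0 on all 4 arrays. Array 1 gave the highest value of a gene for 22 of the 41 genes and array 2 the lowest for 23. On array 3, where the hepatocyte markers had a median of -0.48 and the erythroid markers a median of -0.45, both lower in knockout, the replication genes were at 0.19. On array 1 those marker medians were 1.82 and 0.47 and the replication genes were at 0.25. None of the 7 measured hepatocyte and 8 measured erythroid markers passed the test (limma; 2 and 0 had an unadjusted p under 0.05). The summed erythroid signal was 113695 to 165521 in knockout and 61921 to 152627 in wild type. The arrays with Xist strongly lower in knockout (1 and 3) and the array with Xist higher (4) all had replication medians above 0. Whether the sex of the embryos, or liver or blood cells in an extract, affected these medians was not tested.

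**Figure D2:**
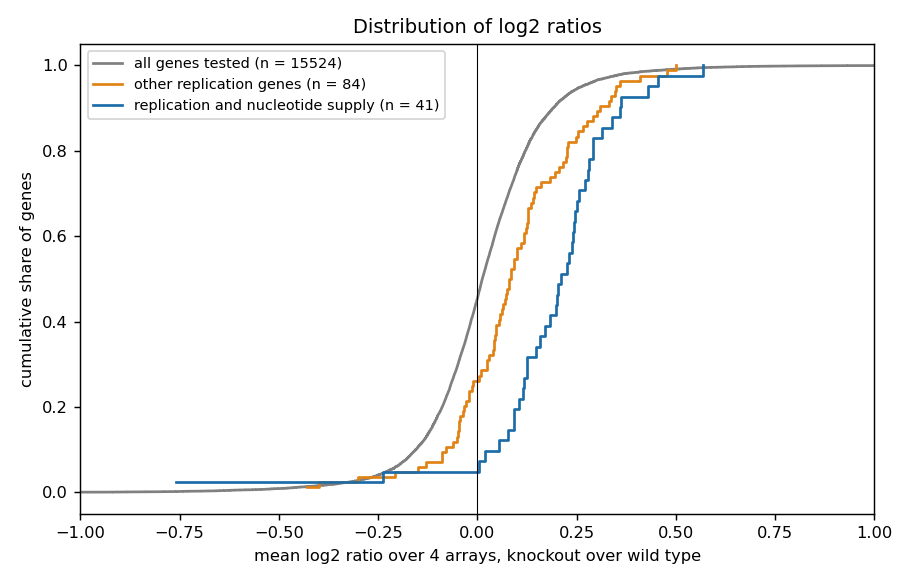
Cumulative share of genes (y axis) against the mean log2 ratio over 4 arrays (x axis) for all 15524 genes tested, 84 other replication genes and the 41 genes described here. The curve of the 41 genes has its median at 0.21 and that of the other replication genes at 0.082, against 0.013 for all genes.

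Among the 15 measured genes of helicase loading and activation, 8 rose, 1 fell and 6 did not pass, with a median of 0.21. The 6 subunits of the Mcm2 to Mcm7 ring did not move together. Mcm5 gave -0.90, -0.58, -1.05 and -0.50 on arrays 1 to 4, a fall of 0.76 ± 0.092 (SE, 1.69-fold, limma adjusted p = 0.00360). Its normalised signal was 4297, 4195, 2892 and 4075 in the knockout extracts and 8019, 6262, 5995 and 5780 in the wild-type extracts. Every knockout signal thus lay below every wild-type signal. Mcm6, another subunit of the same ring, gave 0.55, 0.29, 0.36 and 0.52, a mean of 0.43 ± 0.057 (adjusted p = 0.00455). The Mcm6 signal was 3763, 3598, 3649 and 2969 in knockout and 2573, 2942, 2848 and 2071 in wild type, again without overlap, in the opposite direction. Mcm7 was higher on all arrays too, at 0.47, 0.16, 0.37 and 0.45 (mean 0.36 ± 0.061, adjusted p = 0.0104). Mcm2 gave 0.40, 0.35, 0.071 and 0.27 (mean 0.27 ± 0.061, adjusted p = 0.0271), with a smaller value on array 3 than elsewhere. Mcm3 and Mcm4 had means of 0.15 and 0.093 with all arrays above 0 and did not pass (adjusted p = 0.0637 and 0.219). Against the median of the other 5 subunits on the same array, Mcm5 was lower on every array, with differences of -1.296, -0.74, -1.18 and -0.77 on arrays 1 to 4 and a mean of -0.997 ± 0.28 (SD, n = 4). This difference is a description, since Mcm5 was singled out for its fall. Each of the 6 subunits rests on 1 probe, so no second probe checks the Mcm5 value.

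**Figure D3:**
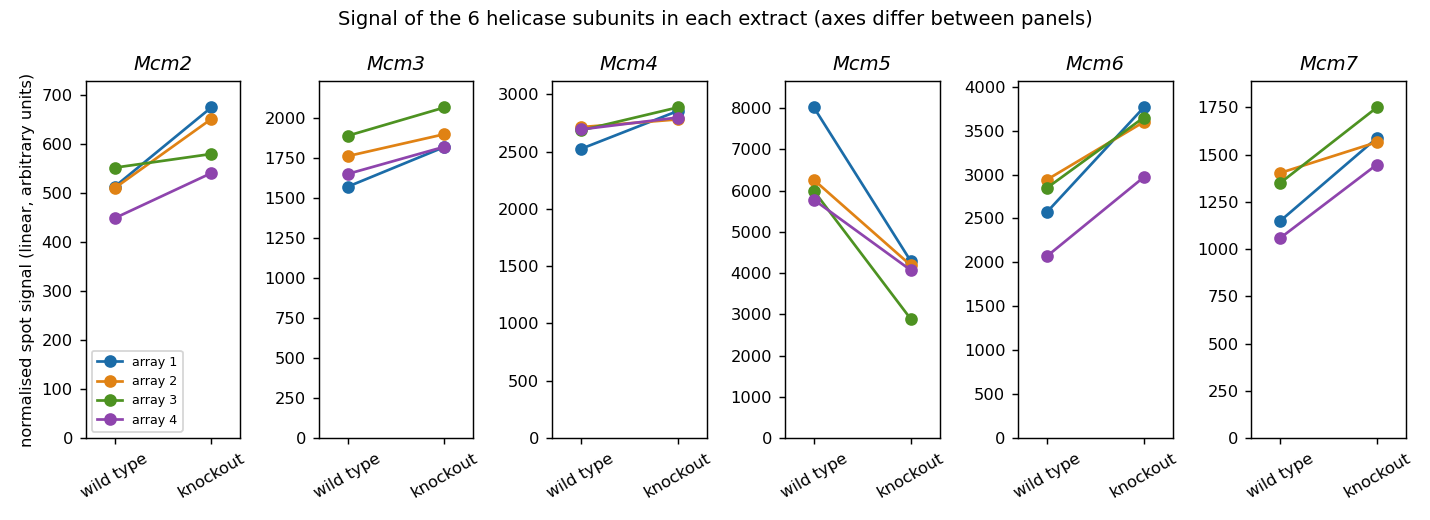
Normalised spot signal (y axis, linear, starting at 0, with a scale of its own in each panel) of Mcm2 to Mcm7 in the wild-type and knockout extract of each array, joined by a line per array. Mcm5 falls from 5780 to 8019 in wild type to 2892 to 4297 in knockout, while the lines of the other 5 genes rise on every array.

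The start regions of Mcm5 and Mcm6 are shown because these subunits moved in opposite directions although both regions hold E2F-type letters. Both sequences are from RefSeq (GRCm38.p6) and run 5′ to 3′ along the gene, from 250 bases before the start to 50 bases from it, at chr8:75109259-75109558 on the plus strand for Mcm5 and at chr1:128359656-128359955 on the minus strand for Mcm6. Capitals mark matches to TTTGGCGC, TTTCGCGC, TTTCCCGC or TTTGCCGC on either strand, and neighbouring matches overlap.
Mcm5: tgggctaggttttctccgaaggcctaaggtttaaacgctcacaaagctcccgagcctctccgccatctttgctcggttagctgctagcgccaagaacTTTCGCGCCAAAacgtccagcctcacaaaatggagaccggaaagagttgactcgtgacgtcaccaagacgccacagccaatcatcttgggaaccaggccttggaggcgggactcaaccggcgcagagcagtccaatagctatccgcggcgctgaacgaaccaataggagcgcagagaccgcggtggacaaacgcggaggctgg
Mcm6: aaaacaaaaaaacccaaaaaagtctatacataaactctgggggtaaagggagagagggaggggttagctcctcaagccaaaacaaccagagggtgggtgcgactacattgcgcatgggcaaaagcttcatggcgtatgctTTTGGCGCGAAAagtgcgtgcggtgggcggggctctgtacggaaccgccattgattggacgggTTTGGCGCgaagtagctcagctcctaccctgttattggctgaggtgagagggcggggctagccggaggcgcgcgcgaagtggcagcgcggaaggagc
In Mcm5 the 2 overlapping matches, on opposite strands, lie at positions -153 to -142 with the first transcribed base as 0, and in Mcm6 a like pair lies at -110 to -99 and a further match at -47 to -40. Mcm5 also has 3 matches to CCAAT and Mcm6 has 2. Such matches are common among the genes described here: 14 of the 35 genes with a start region in the RefSeq table (40.0%) hold an E2F-type match in at least 1 region, against 2.61% of 27025 genes in the table. The share was 8 of 12 for helicase loading and activation, 4 of 13 for polymerases and fork, 0 of 6 for nucleotide supply and 2 of 4 for methylation and chromatin copying. Among genes that rose it was 8 of 22, and among those that did not pass 5 of 12. CCAAT on either strand was found in 22 of the 35 genes (62.9%) against 41.1% of all genes, and TTTGAA, the letters of the CHR element of mitotic genes, in 5 of the 35 (14.3%) against 20.2%. A match describes letters and no binding.

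The loading factors Cdc6 and Cdt1 were higher by similar amounts. Cdt1, which brings the Mcm ring to the origin, gave 0.22, 0.25, 0.20 and 0.28 (mean 0.24 ± 0.043, adjusted p = 0.0133), the narrowest spread of the 41 genes (SD 0.033). Cdc6, the ATPase that loads it, gave 0.18, 0.29, 0.18 and 0.19 on its brighter probe (mean 0.21 ± 0.045, adjusted p = 0.0231). The other Cdc6 probe gave 0.17, 0.17, -0.10 and -0.074 and did not pass when probes were tested separately (mean 0.040, adjusted p = 0.723), so the 2 probes disagree. Without any 1 replicate Cdc6 did not pass (adjusted p = 0.0545 to 0.0790), and without loess, on arrays centred on the genes tested, it was lower (-0.22).
Of the origin recognition complex, Orc6 gave 0.37, 0.17, 0.18 and 0.25 (mean 0.24 ± 0.051, adjusted p = 0.0216). Orc1, the subunit that cycles with the cell, was near 0 (0.020 ± 0.056, 95% interval -0.11 to 0.15), but at -0.72 without loess. Mcm10, which helps to activate the helicase, gave 0.31, 0.31, 0.42 and 0.21 (mean 0.31 ± 0.050, adjusted p = 0.00863), but was at 0.056 without loess (adjusted p = 0.385).
Of the GINS genes, Gins4 gave 0.32, 0.12, 0.33 and 0.24 (mean 0.26 ± 0.052, adjusted p = 0.0188), but was at 0.0034 without loess (adjusted p = 0.965). Gins2 and Gins3 had means of 0.10 and 0.12 and did not pass, and Cdc45, which joins GINS on the helicase, was at 0.11 ± 0.062. 

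Of the 16 genes of the polymerases and fork, 11 rose, none fell in limma (1 was lower at an unadjusted p under 0.05, Pole) and 5 did not pass, with a median of 0.24. All 4 small subunits of replication factor C, the loader of the sliding clamp, rose. Rfc4 gave 0.74, 0.60, 0.51 and 0.42, a mean of 0.57 ± 0.059 (1.48-fold, adjusted p = 0.00229) and the highest mean of the 41 genes. Its signal was 1197, 1168, 1150 and 983 in knockout and 718, 769, 807 and 733 in wild type, so that all 4 knockout extracts lay above all 4 wild-type extracts.
The start region of Rfc4, shown as that of the gene with the highest mean, lies at chr16:23127681-23127980 on the minus strand (RefSeq, GRCm38.p6, 5′ to 3′ along the gene) and holds none of the E2F-type words.
Rfc4: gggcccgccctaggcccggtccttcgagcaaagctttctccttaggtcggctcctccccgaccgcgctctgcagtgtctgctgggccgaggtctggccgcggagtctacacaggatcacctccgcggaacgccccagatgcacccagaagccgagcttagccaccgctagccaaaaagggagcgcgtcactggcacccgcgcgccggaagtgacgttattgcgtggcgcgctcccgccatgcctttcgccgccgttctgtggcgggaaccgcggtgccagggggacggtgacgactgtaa
Rfc3 gave 0.35, 0.32, 0.28 and 0.41 (mean 0.34 ± 0.045, adjusted p = 0.00455). Rfc5 gave 0.37, 0.16, 0.38 and 0.26 (mean 0.29 ± 0.053, adjusted p = 0.0134). Rfc2 gave 0.53, 0.10, 0.34 and 0.19 (mean 0.29 ± 0.071, adjusted p = 0.0355), and its other probe had a mean of 0.19 (adjusted p = 0.0810). Rfc1, the large subunit, did not pass, at 0.068, 0.091, 0.0061 and 0.050 (mean 0.054 ± 0.043, adjusted p = 0.440, 95% interval -0.047 to 0.15). Pcna, the clamp that this complex loads, was above 0 on all arrays at 0.30, 0.11, 0.066 and 0.15 and did not pass (mean 0.16 ± 0.053, adjusted p = 0.0869). Mouse Pcna has pseudogene copies in the RefSeq table, as does Tyms, so their probes may bind more than 1 transcript.

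Both primase subunits rose, whereas polymerase alpha, to which they are bound, rose in 1 subunit. Prim1, the catalytic primase subunit, gave 0.47, 0.25, 0.38 and 0.34 (mean 0.36 ± 0.050, adjusted p = 0.00550). Prim2 gave 0.25, 0.27, 0.13 and 0.25 (mean 0.23 ± 0.046, adjusted p = 0.0199). Pola1, the catalytic subunit of polymerase alpha, gave 0.36, 0.15, 0.13 and 0.15 (mean 0.20 ± 0.054, adjusted p = 0.0479), with array 1 apart from the others. It did not pass without any 1 replicate (adjusted p = 0.0758 to 0.133) and was at -0.035 without loess. Pola2, the accessory subunit, was at 0.092 ± 0.051 (adjusted p = 0.267).
Of the extending polymerases, Pold1, the catalytic subunit of polymerase delta, which copies the lagging strand, gave 0.22, 0.13, 0.26 and 0.40 (mean 0.25 ± 0.055, adjusted p = 0.0239), and its other probe had a mean of 0.26. Pole, the catalytic subunit of polymerase epsilon on the leading strand, gave -0.27, -0.16, -0.59 and 0.065 and did not pass (mean -0.24 ± 0.094, adjusted p = 0.137). The value on array 3 came with low signals in both extracts, 132 in knockout and 197 in wild type, where the other arrays had 387 to 460 and 370 to 554. Among the factors that finish and protect the strands, Fen1, the flap nuclease of Okazaki fragments, gave 0.43, 0.13, 0.35 and 0.20 (mean 0.28 ± 0.060, adjusted p = 0.0228). Lig1, which seals those fragments, was at 0.0042 ± 0.057 (95% interval -0.13 to 0.14), with arrays on both sides of 0. Rpa1, the large subunit of the single-strand binding protein, gave 0.35, 0.30, 0.22 and 0.27 (mean 0.28 ± 0.045, adjusted p = 0.00882). Rpa2 gave 0.24, 0.11, 0.19 and 0.20 (mean 0.18 ± 0.045, adjusted p = 0.0364). Neither passed without loess, where Rpa1 was at 0.13 (adjusted p = 0.0634) and Rpa2 at 0.081 (adjusted p = 0.180).

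Of the 6 genes of nucleotide supply and uracil removal, 4 rose and 2 did not pass, with a median of 0.22 and all means above 0. Tyms, thymidylate synthase, which makes the thymine nucleotide of DNA, gave 0.51, 0.41, 0.49 and 0.41, a mean of 0.46 ± 0.045 (1.37-fold, adjusted p = 0.00212). Its other probe gave nearly the same mean, 0.45 (adjusted p = 0.00220). The signals of the brighter probe were 2004, 1811, 2122 and 1482 in knockout and 1405, 1361, 1510 and 1117 in wild type, higher in knockout on each array, although array 4 knockout lay within the wild-type range. Its start region is shown as that of the nucleotide gene with the highest mean and lies at chr5:30073576-30073875 on the minus strand (RefSeq, GRCm38.p6, 5′ to 3′ along the gene), again with none of the E2F-type words.
Tyms: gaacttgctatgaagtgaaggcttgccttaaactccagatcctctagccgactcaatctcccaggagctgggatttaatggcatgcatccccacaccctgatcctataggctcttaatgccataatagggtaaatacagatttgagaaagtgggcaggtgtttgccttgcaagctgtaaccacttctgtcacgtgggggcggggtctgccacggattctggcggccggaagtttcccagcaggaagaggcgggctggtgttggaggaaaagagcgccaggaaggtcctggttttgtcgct
Dut, the dUTPase that keeps uracil out of DNA and makes the substrate of Tyms, gave 0.31, 0.25, 0.29 and 0.14 (mean 0.25 ± 0.048, adjusted p = 0.0170), and its other probe had a mean of 0.21. Ung, the glycosylase that cuts uracil out, gave 0.15, 0.14, 0.23 and 0.28 (mean 0.20 ± 0.047, adjusted p = 0.0303), but was at -0.15 without loess. Ribonucleotide reductase makes deoxynucleotides from ribonucleotides. Its small subunit gene Rrm2 gave 0.35, 0.20, 0.059 and 0.37 (mean 0.24 ± 0.062, adjusted p = 0.0390), with array 3 lower than the rest. Rrm1, the large subunit, was below 0 on array 2 and above 0 on the others (mean 0.13 ± 0.070, adjusted p = 0.267). Tk1, the salvage kinase of thymidine, was likewise near 0 on array 2, at 0.34, -0.0088, 0.28 and 0.21 (mean 0.20 ± 0.063, adjusted p = 0.0712), and passed without replicate 2 (adjusted p = 0.0229).

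The 4 genes that copy methylation and chromatin had a median of 0.15 with loess, with 2 higher and 2 not past the threshold. Chaf1b, a subunit of the histone chaperone CAF-1, gave 0.21, 0.31, 0.17 and 0.23 (mean 0.23 ± 0.046, adjusted p = 0.0180). Chaf1a, the large subunit of the same chaperone, gave 0.13, -0.11, 0.25 and 0.24 and did not pass (mean 0.13 ± 0.067, adjusted p = 0.250). Uhrf1, which guides the maintenance methyltransferase to hemimethylated DNA, gave 0.23, 0.096, 0.21 and 0.14 (mean 0.17 ± 0.046, adjusted p = 0.0474), and did not pass without any 1 replicate (adjusted p = 0.0518 to 0.157). Its other probe had a mean of 0.19. With probes tested separately in limma, that probe had an adjusted p of 0.0492 and the brighter probe 0.0600. Dnmt1, the methyltransferase that Uhrf1 guides, was at 0.077 ± 0.051 (95% interval -0.040 to 0.19).

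The calls depended on how the dyes were scaled. With median centring in place of loess, 35 of the 41 genes passed as higher, against 61.0% of all genes, and 2 as lower (Mcm5 and Orc1), and the median of all genes itself was 0.26. Without loess but centred on the median of the genes tested, 25 genes passed as higher against 27.4% of all genes, and 4 as lower (Mcm5, Orc1, Cdc6 and Ung). The median of the 41 genes was then 0.24, or 0.24 above that of all genes, and 32 of the 41 lay above that median against 38 with loess. Of the 25 genes that rose with loess, 18 rose again, and Mcm10, Gins4, Rpa1, Rpa2, Cdc6, Pola1 and Ung did not. Mcm3, Mcm4, Gins2, Pcna, Lig1, Tk1 and Dnmt1 passed as higher on this scale and not with loess. Genes that lost the call had median knockout signals over the arrays of 182 (Cdc6, brighter probe) to 408 (Rpa2). Those that gained it had 788 (Tk1) to 2825 (Mcm4). The losses were thus among dimmer genes and the gains among brighter ones. Mcm5 stayed lower on that scale (-0.54, adjusted p = 0.00172), and Rfc4, Mcm6 and Tyms stayed highest (0.65, 0.62 and 0.59). Whether loess or the plain scale is nearer to the RNA levels was not tested.

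**Figure D4:**
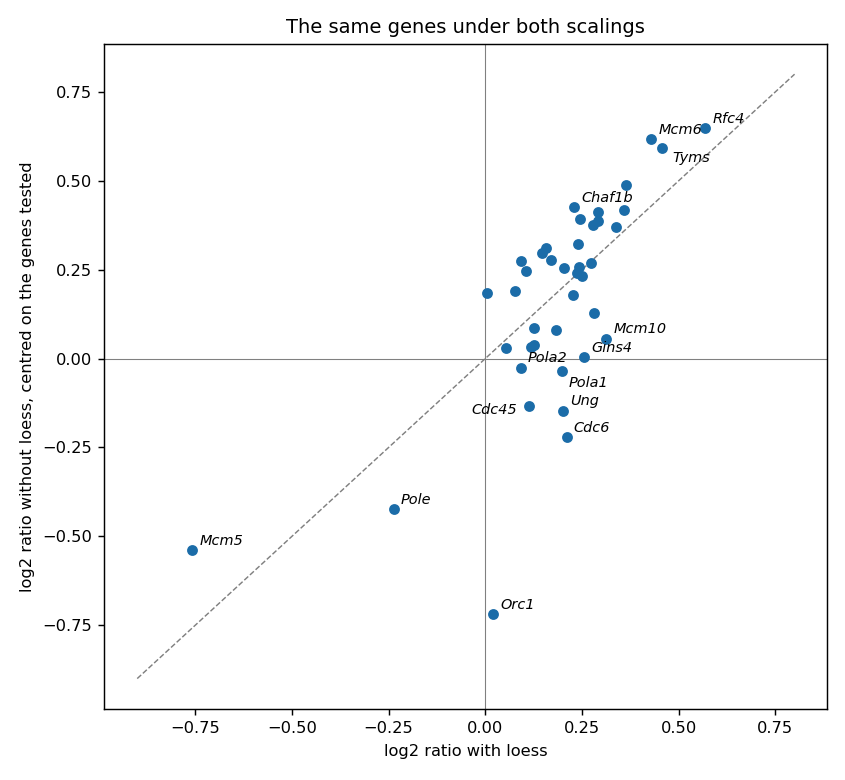
Mean log2 ratio of each of the 41 genes with loess (x axis) and without loess after centring on the genes tested (y axis), with the dashed line where both are equal. Most genes keep their side of 0, while Orc1, Cdc6, Ung, Cdc45, Pola1 and Pola2 lie above 0 on the x axis and below it on the y axis.

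The other genes of the pathway, from lists of 87 genes of which 84 were measured, held 21 that rose and 3 that fell, with a median of 0.082. That is 25.0% higher, against 9.45% of all genes. The difference in share between these genes and the 41 was not tested. Among origin and firing genes, 4 of 17 rose. Gmnn, geminin, the inhibitor of Cdt1, rose by 0.41 ± 0.053 (adjusted p = 0.00434), and Timeless of the fork protection complex (0.29), Orc3 (0.22) and Dbf4 (0.23), the activating subunit of the Cdc7 kinase, completed them. Mcm8, a relative of the Mcm ring that acts in recombination, fell by 0.43 ± 0.068 (adjusted p = 0.00821), but did not pass as the mean of its probes (-0.13). With median centring Mcm8 was at 0.014, where the median of all genes was 0.26. Of 18 further polymerase and fork subunits, 8 rose. All 3 subunits of ribonuclease H2, which removes ribonucleotides from DNA, were among them: Rnaseh2b gave 0.53, 0.38, 0.54 and 0.47 (mean 0.48 ± 0.048), Rnaseh2c had a mean of 0.36 and Rnaseh2a of 0.25. Top2a, the topoisomerase that untangles DNA, had a mean of 0.30 and Pold2, the second subunit of polymerase delta, of 0.31.

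Of 21 measured genes of nucleotide metabolism, 6 rose and 1 fell. Dctpp1, a pyrophosphatase that clears modified deoxycytidine nucleotides, rose by 0.33 ± 0.046, Umps of pyrimidine synthesis by 0.34 ± 0.048, Impdh2 of guanine nucleotide synthesis by 0.35 ± 0.062, and Gart of purine synthesis by 0.25 ± 0.045. Ctps, which makes CTP, gave -0.19, -0.22, -0.22 and -0.20 (adjusted p = 0.0189). With median centring Ctps was at 0.099, where the median of all genes was 0.26. Of 9 histone chaperone genes 1 rose (11.1%, close to the 9.45% of all genes), Nasp (0.20 ± 0.051, adjusted p = 0.0428), which did not pass without any 1 replicate (adjusted p = 0.0563 to 0.140). Of 19 measured E2F and G1/S regulators, 2 rose and 1 fell, shares close to the 9.45% and 5.11% of all genes. Ccna2, cyclin A2, gave 0.57, 0.52, 0.49 and 0.42 (mean 0.50 ± 0.046, adjusted p = 0.00207). E2f2, one of the activating E2F factors, gave 0.59, 0.26, 0.011 and 0.52 (mean 0.35 ± 0.093, adjusted p = 0.0466), near 0 on array 3, and its adjusted p was 0.0145 to 0.145 when 1 replicate was left out. Cdkn1a, the p21 inhibitor of cyclin-dependent kinases, gave -0.34, -0.40, -0.36 and -0.49 and fell by 0.40 ± 0.047 (adjusted p = 0.00320). Dbf4, Rnaseh2a and Ctps were named after their values were seen.

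Across the 41 genes the log2 ratios of 2 arrays correlated with Pearson's r of 0.70 to 0.91, against 0.31 to 0.60 across all genes tested, a description only, since genes of 1 array share its extracts and dyes and Mcm5 lies far from the rest. The median SD of a gene over the 4 arrays was 0.094 for the 41 genes and 0.10 for all genes tested. Of the 41 genes, 31 had an unadjusted p under 0.05, 2 of them with a mean below 0 (Mcm5 and Pole), against 4777 of all 15524 genes.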

How the data were processed

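The 4 two-colour Agilent arrays were read out by the authors, and the submitters' processing notes name version 10.5.1.1 of Agilent Feature Extraction. The deposited files give median spot and background signals and processed signals as intensity on a linear scale, and a log10 value for red relative to green. RNA (20 µg) was reverse transcribed from oligo(dT) and dye-coupled, per the labels.

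For this report limma 3.58.1 (R 4.3.3) corrected the median signals by normexp with an offset of 50 and then ran loess array by array, with control and non-uniform spots at weight 0. Non-uniform spots (597 to 979 per array) were left out and spots of a probe averaged. No spot was saturated. Accessions without versions were matched to RefSeq transcripts of GRCm38.p6, which named 25097 of 41174 probes. The files name an older build, so coordinates are given for RefSeq start regions only. A probe was tested if well above background in 1 channel on at least 3 arrays, with its gene represented by its brightest probe: 15524 genes, 601 of them with values on 3 arrays. limma tested the log2 ratio against 0 over 4 arrays (two-sided, Benjamini-Hochberg over all genes, threshold 0.05), so the 2 extracts of an array are paired inside each ratio. The fit was tested on simulated data. Signals printed per extract were also scaled between arrays by Aquantile. All arrays lie on 1 slide with 1 scan, so no batch could be compared. The number of arrays limits the precision.

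The genes, the lists and the tests were chosen with earlier results of these data known. Per-array values were given for genes past the threshold, for genes with means of at least 0.4 in size and for genes whose probes differ in sign. After values were seen, they were also given for some genes set beside these. Of the other replication genes, at most 4 per list were to be named. Alternatives were other background corrections and scalings, filters, probe rules, eBayes with trend and robust, array weights, no array block and leaving out each replicate. Arrays centred on the genes tested without loess were added after seeing the data.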

Additional observations from a re-analysis of the deposited data

Results flagged for a closer look

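In 3 of the 41 genes, 1 array lay farther from the other 3 than Dixon's 95% limit allows. Chance alone gives about 1 such gene in 20. For Pola1 the gap made up 0.891 of the range, with array 1 at 0.36 and the others at 0.13 to 0.15. For Cdc6 it was 0.847, with array 2 at 0.29 and the others at 0.18 to 0.19. For Prim2 it was 0.841, with array 3 at 0.13 and the others at 0.25 to 0.27. All 4 values of each gene were above 0.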

How the results depend on the processing

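Most genes kept their direction under each alternative, and the counts did not. Without 1 replicate, genes higher in knockout numbered 654 to 1015 (1467 with all arrays) and lower 365 to 642 (793), the 41 genes 9 to 21 higher and 1 lower, and the other replication genes 12 to 17 higher (21) and 2 to 4 lower (3). The helicase median was then 0.18 to 0.23. Without the array as a replicate block, 51 genes were higher and 31 lower, 1 and 0 of the 41 (limma; 18 and 1 at an unadjusted p under 0.05) and 0 and 0 of the other replication genes (18 and 3 unadjusted). Scaling between arrays gave 701 higher, 378 lower and 15 of the 41 higher. Median centring gave 9471 higher and 2451 lower (79.4% higher against 64.9%), 2 of the 41 lower, 62 other replication genes higher, and medians of 0.49 for the 41 genes and for the helicase group, 0.46 for polymerases, 0.51 for nucleotide supply and 0.48 for chromatin. Centring on the genes tested, chosen after seeing the data, gave 4254 higher and 4811 lower (46.9% higher), 4 of the 41 lower, 36 and 15 of the other replication genes higher and lower, a helicase median of 0.24 and a chromatin median of 0.23. The helicase median also moved to 0.24 without background correction and with the Feature Extraction log ratio, and to 0.15 with the mean of a gene's probes. The nucleotide median moved to 0.29 with Feature Extraction's processed signals and with its log ratio.

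Signs turned for genes near 0 or under another scaling. Orc1 was -0.47 with median centring, -0.024 without replicate 1 (0.073 without replicate 2) and -0.72 centred on the genes tested. On that last scale Cdc6 was -0.22, Cdc45 -0.13, Pola1 -0.035, Pola2 -0.026, Ung -0.15 and Chtf18 -0.011. Lig1 was -0.017 with scaling between arrays, -0.0051 without the block, and -0.030 and -0.019 without replicate 3 and 4 (0.064 without replicate 2). Mcm8 was 0.014 and Ctps 0.099 with median centring, both still below the median of all genes on that scale, 0.26. The cause of the turned signs was not tested. Of the 41 genes, those that turned when centred on the genes tested had median knockout signals of 107 (Orc1) to 360 (Pola2). Lig1 had 2716. Of these, Orc1 alone was not well above background on every array, with 1 array short in each channel.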
